A study of Mus musculus with 4 samples.

Results

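The proteasome subunit genes were examined in mouse bone marrow-derived dendritic cells, antigen-presenting cells grown from marrow precursors of C57BL/6 mice. Cells harvested on culture day 7 received 0.3 µM sulforaphane in DMSO for 2 h, or DMSO only, and all were then stimulated for 1 h with 100 ng/ml LPS (lipopolysaccharide). Sulforaphane, a compound of broccoli, is known to activate NRF2, a transcription factor of the oxidative stress response, and LPS is a bacterial ligand of the receptor TLR4. Each treatment had 2 samples on 1 array each, named by treatment and replicate number below. All groups had received LPS, so the comparison is of sulforaphane against its solvent within activated cells. The labels do not say whether replicates came from separate mice or cultures, so a p-value here reflects the spread of these samples alone, and that spread may be technical. Members were the genes whose symbol begins with Psma to Psmg followed by a number, which gave 49 of the 22180 genes with a probe set assigned to a single symbol. By name they fell into 15 genes of the 20S core, 3 of the immunoproteasome, 21 of the 19S cap and 10 activators and assembly factors. Psma4 was not among them, because its probe sets also name another gene.

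The proteasome is the main protease of the cytosol and nucleus. Its 20S core is a barrel of stacked rings, in which alpha subunits (Psma) form the gate and beta subunits (Psmb) carry the cutting sites inside. The 19S cap binds ubiquitin-tagged proteins and unfolds them with a ring of ATPases (Psmc) surrounded by non-ATPase subunits (Psmd). In antigen-presenting cells the catalytic subunits Psmb6, Psmb7 and Psmb5 can be replaced by Psmb9, Psmb10 and Psmb8, the interferon-inducible subunits of the immunoproteasome, which favours peptides that fit MHC class I molecules. Proteasome genes are known to be induced together through NFE2L1 when proteasome activity is blocked, and a part of them has also been tied to NRF2, through promoter sites called antioxidant response elements.

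Promoter sequence from RefSeq (build GRCm38.p6) was at hand for 41 of the 49 members. Shown here are the 200 bases before the start of Psmc1, Psmd4, Psmb5 and Psmb9. By the probe set used for each gene, Psmc1 and Psmd4 had the largest positive differences of all members. Psmb5 and Psmb9 are a constitutive and an inducible catalytic subunit whose differences had opposite signs. Sequences run 5′ to 3′ on the strand of the gene, and capitals mark letters that match one of 3 motifs searched on both strands: TGACNNNGC (core of the antioxidant response element), CCAAT (the NF-Y box) and the core of the interferon-stimulated response element, given by name (interferon motif below). They lie at chr12:100110002-100110201 on the plus strand for Psmc1, and on the minus strand at chr3:95042615-95042814 for Psmd4, chr14:54617996-54618195 for Psmb5 and chr17:34187331-34187530 for Psmb9.
Psmc1: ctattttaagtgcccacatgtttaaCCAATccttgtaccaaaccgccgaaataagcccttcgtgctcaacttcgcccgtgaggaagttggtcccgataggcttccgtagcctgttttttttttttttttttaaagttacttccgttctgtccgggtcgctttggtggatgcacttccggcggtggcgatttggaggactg
Psmd4: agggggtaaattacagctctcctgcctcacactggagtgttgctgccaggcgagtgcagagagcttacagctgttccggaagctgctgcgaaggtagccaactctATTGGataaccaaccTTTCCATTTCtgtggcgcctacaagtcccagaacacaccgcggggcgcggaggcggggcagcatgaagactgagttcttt
Psmb5: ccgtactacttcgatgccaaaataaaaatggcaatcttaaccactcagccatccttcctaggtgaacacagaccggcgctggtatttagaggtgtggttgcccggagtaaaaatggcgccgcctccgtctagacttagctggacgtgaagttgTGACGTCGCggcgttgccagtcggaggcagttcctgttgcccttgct
Psmb9: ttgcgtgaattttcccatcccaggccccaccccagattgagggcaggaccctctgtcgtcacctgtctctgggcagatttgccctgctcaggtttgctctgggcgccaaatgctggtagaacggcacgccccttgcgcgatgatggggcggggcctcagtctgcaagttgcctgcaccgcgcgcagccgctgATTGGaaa
In this stretch of Psmc1 the only match was a CCAAT whose first base lies 175 bases before the start. Psmd4 held ATTGG, the NF-Y box read on the opposite strand, at 95 bases and TTTCCATTTC (the interferon motif on the opposite strand) at 80 bases before the start. Psmb5 held TGACGTCGC at 47 bases before the start, and Psmb9 the letters ATTGG at 8 bases before it.

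Over the whole windows, which run from 250 bases before to 50 bases after the start, the antioxidant core was in 13.3% of the 45 windows of members and in 12.4% of all 32851 promoter windows. CCAAT was in 35.6% of the members' windows and 37.4% of all, and the interferon core in 11.1% against 3.44%. The interferon core was in the windows of Psmb3, Psmd4, Psmd9, Psme1 and Psmg4, of which none is an immunoproteasome subunit. The 6 members with the antioxidant core were Psmb5, Psmb6, Psmc6, Psmd9, Psmd12 and Psme4. Their log2 differences between sulforaphane and DMSO were 0.13, 0.19, 0.26, -0.17, 0.027 and 0.15, in that order. All but Psmd9 lay above 0, as did 70.8% of all members tested and 54.2% of all genes tested. Whether the letter pattern goes with the difference was not tested. No match overlapped one of another motif, while in Psmd14 matches to the NF-Y box on opposite strands overlapped each other. A match is a run of letters and not a measured binding site.

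No proteasome gene passed the test between sulforaphane and DMSO. Of the 49 members 48 lay above the intensity filter and were tested, and 0 had an adjusted p under 0.05 by limma over all 14652 genes tested, where 19 genes (0.13%) passed, 9 higher (0.0614%) and 10 lower (0.0683%). The smallest adjusted p of a member was 0.323. An unadjusted limma p under 0.05 was reached by 4 members, Psmc1, Psmd4 and Psmd7 as higher and Psma8 as lower, beside 13% of all genes tested (7.09% as higher and 5.87% as lower). The differences were small: 34 of 48 members lay above 0 and 14 below, with a median of 0.084 on the log2 scale. Over all genes tested the median was 0.018 and 54.2% lay above 0. The groups did not overlap in 24 members, 17 higher and 7 lower with sulforaphane, which is 50% of those tested against 43.6% of all genes. The share of members lying higher in this way, 17 of 48, stood beside 24% of all genes, and the 7 lower beside 19.5%.

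Within the spread of these arrays, 2 per treatment and possibly technical, the intervals of most members were bounded. For 41 of the 48 the 95% interval of the single gene lay within 1.5-fold in both directions, a share not computed over all genes. The interval included 0 for 44 members. It leaves out 0 where the unadjusted limma p is under 0.05, which held for 13% of all genes tested. Only Psma5, which was measured poorly, differed by 1.5-fold or more in its estimate, where 2.85% of all genes did. The 8 NRF2 target genes listed show what the same arrays gave for genes that NRF2 is known to induce. Osgin1, an oxidative stress-responsive growth inhibitor, rose by 1.57 ± 0.13 SE (adjusted p = 0.0322 by limma) and was the 1 of the 8 that passed. The other 7 had adjusted p from 0.0510 (Hmox1) to 0.221 (Slc7a11) by limma. All 8 lay higher without overlap, as 24% of all genes tested did, with a median difference of 0.80. The differences of these targets were known from earlier results of these data and is given for scale. Since the samples are bulk cultures, fewer cells of a type and less RNA per cell cannot be told apart in any value here.

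**Figure D1:**
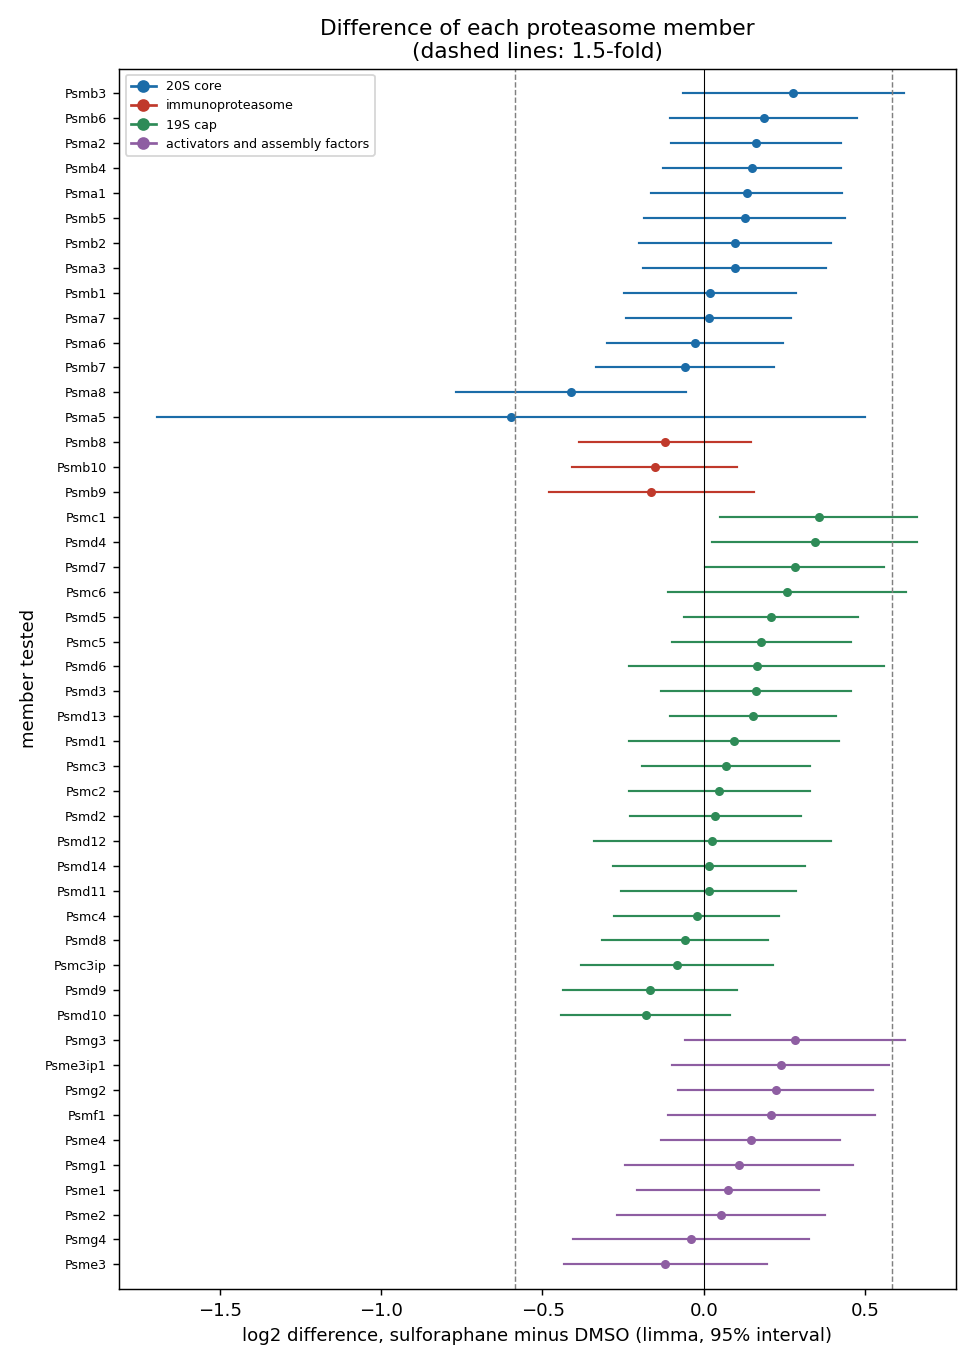
Log2 difference between sulforaphane and DMSO (2 arrays each) for the 48 members tested, on the horizontal axis, with 95% intervals from limma as lines and classes in colour. Dashed lines mark 1.5-fold. 44 of the 48 intervals include 0, and the 3 immunoproteasome subunits lie to the left of 0.

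In the 20S core, 10 of 14 members tested lay above 0 and 4 below, with a median difference of 0.097, and 0 passed the test. Values are log2 and are given for replicate 1, then replicate 2. Psmb3, a structural beta subunit, read 5.20 and 5.52 in DMSO and 5.60 and 5.67 after sulforaphane, a difference of 0.28 ± 0.14 SE (95% interval -0.065 to 0.62; adjusted p = 0.480 by limma), and 0.12 without DMSO replicate 1. Both sulforaphane arrays lay above both DMSO arrays, but the DMSO arrays differed from each other by as much as the group means did. Psmb6, the constitutive subunit of the caspase-like site, read 8.31 and 8.47 in DMSO and 8.64 and 8.52 after sulforaphane, a difference of 0.19 ± 0.12 (adjusted p = 0.580), and 0.11 without DMSO replicate 1. Psma2, of the alpha ring, read 8.62 and 8.72 against 8.84 and 8.83, a difference of 0.16 ± 0.11 (adjusted p = 0.597). These and Psmb4 (0.15), another structural beta subunit, were the 4 of 14 core members in which the sulforaphane arrays lay higher without overlap. Over all genes tested 24% did.

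The remaining core subunits lay close to 0. Psmb5, which carries the chymotrypsin-like site, read 11.26 and 11.35 in DMSO and 11.31 and 11.55 after sulforaphane, a difference of 0.13 (-0.18 to 0.44) that was 0.0089 without sulforaphane replicate 2. Psmb7, of the trypsin-like site, read 8.06 and 8.21 against 8.10 and 8.06, a difference of -0.058 (-0.33 to 0.22), which turned to 0.014 without DMSO replicate 2. Its groups overlapped. The other members of the rings differed by 0.13 (Psma1), 0.096 (Psma3), 0.098 (Psmb2), 0.021 (Psmb1), 0.015 (Psma7) and -0.027 (Psma6), all with overlapping groups. Among the 7 constitutive beta subunits 6 lay above 0, with a median of 0.13, and among the 6 alpha subunits 4 did, with a median of 0.056.

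Psma5 and the tissue-restricted core subunits gave low readings. Psma5, an alpha subunit of every proteasome, read 4.28 and 3.33 in DMSO and 3.80 and 2.61 after sulforaphane, so replicates of a treatment lay further apart than the group means, and its difference of -0.60 had an interval from -1.69 to 0.50. With 1 array left out it ran from -1.19 to -0.0051. Its other probe set read between 3.09 and 3.39 and differed by 0.22, the opposite sign, and both lay near the array medians of 3.24 to 3.27. The sign for Psma5 thus differed between its probe sets. Psma8, an alpha subunit of the testis, read 3.51 and 3.86 in DMSO and 3.29 and 3.25 after sulforaphane, a difference of -0.41 ± 0.15 SE (adjusted p = 0.327 by limma), and -0.24 without DMSO replicate 2, also near the array medians. Psmb11, the beta subunit of the thymus cortex, was the member under the intensity filter of 2.91, with 3.01 and 2.77 in DMSO and 2.88 and 2.84 after sulforaphane. All 3 genes read close to the middle of the whole table.

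All 3 immunoproteasome subunits lay below 0, with a median difference of -0.15, and 0 passed the test. Of all genes tested 54.2% lay above 0. Psmb10, the inducible subunit of the trypsin-like site, read 9.60 and 9.56 in DMSO and 9.44 and 9.41 after sulforaphane, a difference of -0.15 ± 0.11 SE (-0.41 to 0.10; adjusted p = 0.612 by limma). Psmb8, of the chymotrypsin-like site, read 9.38 and 9.29 against 9.18 and 9.24, a difference of -0.12 ± 0.11 (-0.39 to 0.15; adjusted p = 0.722), and -0.071 without DMSO replicate 1. In both genes each sulforaphane array lay below each DMSO array, as in 19.5% of all genes tested. Psmb9, of the caspase-like site, read 8.24 and 8.34 in DMSO and 8.004 and 8.26 after sulforaphane, a difference of -0.16 ± 0.13 (-0.48 to 0.16; adjusted p = 0.674). Its groups overlapped, since sulforaphane replicate 2 lay just above DMSO replicate 1, and without sulforaphane replicate 1 its difference was -0.036. Without that array the median of the 3 was -0.089. The lowest bound of the 3 intervals was -0.48.

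Each inducible subunit was then set against the constitutive subunit it replaces, as a log2 ratio within each array, in 3 comparisons. The change of a ratio between treatments can be read, but the ratio itself compares different probes and says nothing of which subunit was more abundant. The ratio of Psmb9 to Psmb6 was -0.070 and -0.13 in DMSO and -0.63 and -0.26 after sulforaphane, a change of -0.35. For Psmb8 to Psmb5 it was -1.88 and -2.06 in DMSO and -2.13 and -2.31 after sulforaphane, a change of -0.25. In both pairs the sulforaphane arrays lay below the DMSO arrays, with an exact permutation p of 0.333 (two-sided, 2 against 2 arrays; 0.5 adjusted over the 3 pairs), the smallest this design can give. For Psmb10 to Psmb7 the ratio was 1.53 and 1.35 in DMSO and 1.34 and 1.35 after sulforaphane, a change of -0.094 with overlapping groups (exact permutation p = 0.667).

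**Figure D2:**
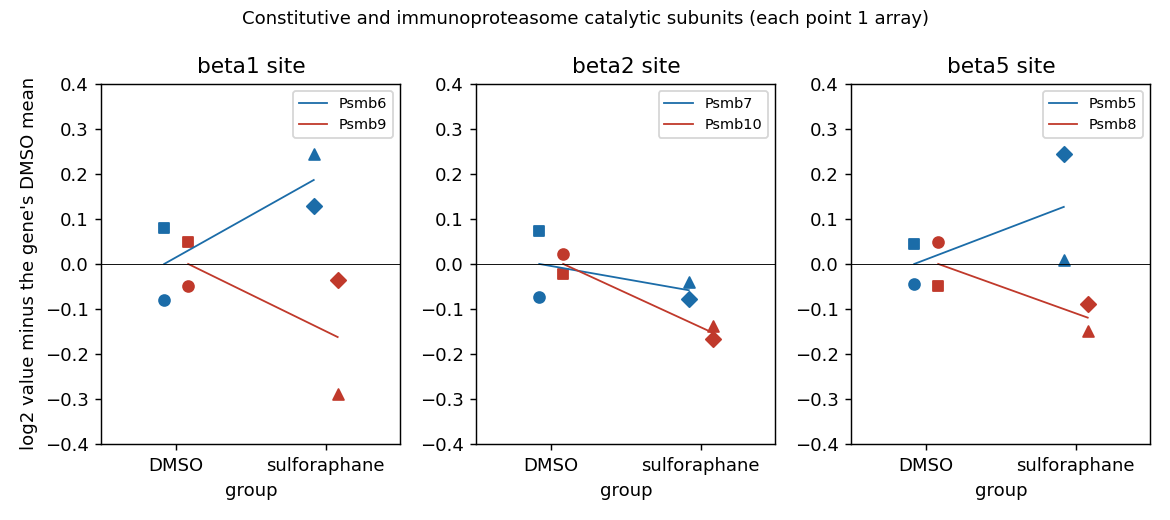
Log2 value minus the gene's DMSO mean for each constitutive (blue) and inducible (red) catalytic subunit, by treatment, with 1 point per array (circle and square, DMSO replicates 1 and 2; triangle and diamond, sulforaphane replicates 1 and 2) and lines joining the means. The red lines run downwards in all 3 panels and the blue lines upwards for Psmb6 and Psmb5.

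The 19S cap held the members with the largest positive differences, yet 0 of its 21 genes passed the test. Of these 16 lay above 0 and 5 below (median 0.069), where 54.2% of all genes tested lay above 0. Without overlap 8 lay higher and 4 lower, beside 24% and 19.5% of all genes tested. Psmc1, an ATPase of the unfolding ring, read 8.34 and 8.56 in DMSO and 8.86 and 8.76 after sulforaphane, a difference of 0.36 ± 0.12 SE, or 1.28-fold (0.051 to 0.66; adjusted p = 0.323 by limma). Psmd4, a receptor for ubiquitin chains, read 9.02 and 8.82 against 9.17 and 9.36, a difference of 0.34 ± 0.13, or 1.27-fold (adjusted p = 0.353). Psmd7, a lid subunit that pairs with the deubiquitinase Psmd14, read 9.44 and 9.47 against 9.65 and 9.81, a difference of 0.28 ± 0.11, or 1.22-fold (adjusted p = 0.382). In all 3 genes every sulforaphane array lay above every DMSO array, so leaving out 1 array could not turn the sign of a difference. Other filters, the block and other eBayes settings cannot change a difference either. The differences stayed above 0 under each alternative scaling. No call was made for these genes in any alternative setting that kept all 4 arrays. On the simulated arrays described below, 4% of genes altered by 1.5-fold were called. A missing call thus says little of differences of this size.

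By role, 5 of the 6 ATPases lay above 0 (median 0.12), namely Psmc1, Psmc6 (0.26), Psmc5 (0.18), Psmc3 (0.069) and Psmc2 (0.048), while Psmc4 differed by -0.022. The groups of Psmc6 overlapped. Psmc2 had another probe set, of lower mean and therefore not used. It read 4.90 and 5.26 in DMSO and 5.39 and 5.55 after sulforaphane. Its difference of 0.39 was larger than the one given for Psmc1, so the size for Psmc2 depended on the probe set. Of the 11 non-ATPase subunits 10 lay above 0 (median 0.094), and the lowest was Psmd8 at -0.058. Besides Psmd4 and Psmd7, the scaffold subunits Psmd3 (0.16) and Psmd13 (0.15) lay higher without overlap. The deubiquitinase Psmd14 differed by 0.017 (-0.28 to 0.32), Psmd2 by 0.036, Psmd11 by 0.015, Psmd12 by 0.027, Psmd1 by 0.094 and Psmd6 by 0.16, all with overlapping groups. Without sulforaphane replicate 1 the median of the 21 genes of the cap was -0.010.

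The genes Psmd5, Psmd9 and Psmd10 encode chaperones that help to assemble the base of the cap and leave it when it is complete. They had different signs. Psmd5 read 9.11 and 9.01 in DMSO and 9.30 and 9.23 after sulforaphane, a difference of 0.21 ± 0.11 SE (adjusted p = 0.500 by limma). Psmd10, also called gankyrin, read 9.11 and 9.12 against 8.98 and 8.89, a difference of -0.18 ± 0.11 (adjusted p = 0.551), the lowest of the cap. Psmd9 differed by -0.17 (-0.43 to 0.10). The groups lay apart in each of the 3, as in 43.6% of all genes tested. Whether the chaperones differ from one another was not tested. Psmc3ip, named after a subunit it binds but known for its part in meiotic recombination, differed by -0.082.

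Among activators and assembly factors 8 of 10 lay above 0, with a median of 0.13, and 0 passed. Psmg3, a chaperone of alpha ring assembly, read 4.92 and 5.24 in DMSO and 5.39 and 5.35 after sulforaphane, a difference of 0.28 ± 0.14 SE (-0.059 to 0.63; adjusted p = 0.472 by limma), and 0.12 without DMSO replicate 1. Psmg2, the partner of Psmg1, read 6.67 and 6.89 against 6.97 and 7.04, a difference of 0.22 ± 0.12 (adjusted p = 0.521), and 0.11 without DMSO replicate 1. Psmg3 and Psmg2 lay higher without overlap, as 24% of all genes tested did, while the chaperones Psmg1 (0.11) and Psmg4 (-0.039) had overlapping groups. The other probe set of Psmg2, with a mean of 2.84 under the intensity filter, differed by -0.044, the opposite sign. With the mean of its probe sets the difference of Psmg2 was 0.089. Psmf1, which encodes the proteasome-binding protein PI31, read 6.96 and 7.05 in DMSO and 7.08 and 7.34 after sulforaphane, a difference of 0.21 ± 0.13 (adjusted p = 0.574), and 0.079 without sulforaphane replicate 2. Psme3ip1, which encodes a protein that binds the activator Psme3, read 9.56 and 9.79 against 10.02 and 9.81, a difference of 0.24 ± 0.14 (adjusted p = 0.533), and 0.12 without DMSO replicate 1 or 0.13 without sulforaphane replicate 1. In both the groups lay apart, by less than the spread within one of them.

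The activator rings showed little difference. Psme1 and Psme2, the interferon-inducible subunits of the activator PA28 that opens the core without ubiquitin, differed by 0.074 (-0.21 to 0.36) and 0.053 (-0.27 to 0.38), with overlapping groups. Unlike in the immunoproteasome subunits, the estimates lay above 0, and the difference between these sets was not tested. Psme3, the nuclear activator, read 6.81 and 7.02 in DMSO and 6.87 and 6.71 after sulforaphane, a difference of -0.12 ± 0.13 SE that ran from -0.22 (without DMSO replicate 1) to -0.015 (without DMSO replicate 2). Psme4, the activator PA200, differed by 0.15 and lay higher without overlap.

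**Figure D3:**
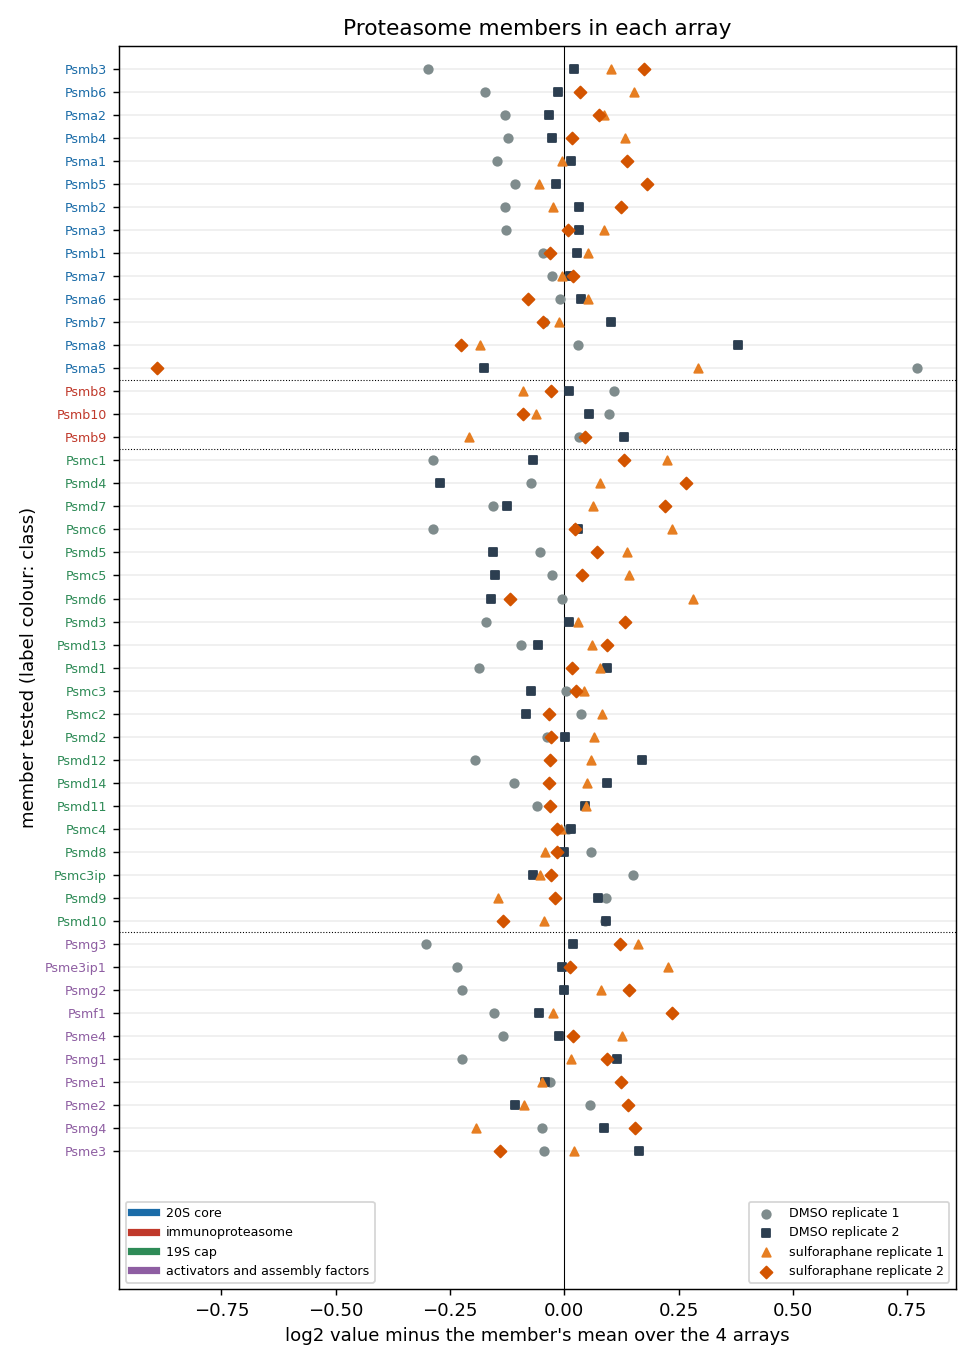
Log2 value of each of the 48 members tested in each of the 4 arrays, minus the member's mean over the arrays, on the horizontal axis, with classes by label colour and separated by dotted lines. DMSO replicate 1 (grey circles) is the lowest array in 26 members, and Psma5 shows the widest spread.

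DMSO replicate 1, which stood apart from the other arrays in the whole table (interquartile range 3.41, against 3.61 to 3.62), was the lowest array in 26 of the 48 members (54.2%), as it was in 36.8% of all genes tested. The median of the members' differences, DMSO replicate 2 minus DMSO replicate 1, was 0.096, and 34 of 48 lay higher in replicate 2. This median between control arrays is as large as the members' median difference of 0.084 between treatments. Over all genes tested DMSO replicate 2 lay above replicate 1 in 8431 of 14652, with a median of 0.042. Against DMSO replicate 1, sulforaphane replicate 1 lay higher in 35 members (median 0.12; 0.033 over all genes) and sulforaphane replicate 2 in 34 (median 0.13; 0.043 over all genes). Against DMSO replicate 2 they lay higher in 28 (median 0.020; -0.0049 over all genes) and 27 (median 0.036; 0.0016 over all genes). The members' shift was thus larger against DMSO replicate 1 than against replicate 2 in both sulforaphane arrays.

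Leaving out DMSO replicate 1 brought the members' median to 0.040, with 28 of 48 above 0, and that of the 20S core to 0.017. Centring each array on the median of the genes tested, a setting chosen after the values were seen, brought the members' median to 0.022, with 26 of 48 above 0 and the median of all genes at -0.044, and the split of genes past the threshold from 9 higher and 10 lower to 41 higher and 102 lower. The members' excess over all genes was the same under this centring, since it moves every gene alike. The members' median stayed above 0 in both settings. The immunoproteasome subunits did not share this pattern: their median deviation was 0.098 and 0.055 in the DMSO arrays and -0.089 and -0.030 in the sulforaphane arrays.

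Most members were in the upper range of intensities, 30 in the highest quartile of mean level and 12 in the next. The genes tested in these quartiles had median differences of 0.020 and 0.046, and 56.1% and 60.2% of them lay above 0, against 70.8% of the members.

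**Figure D4:**
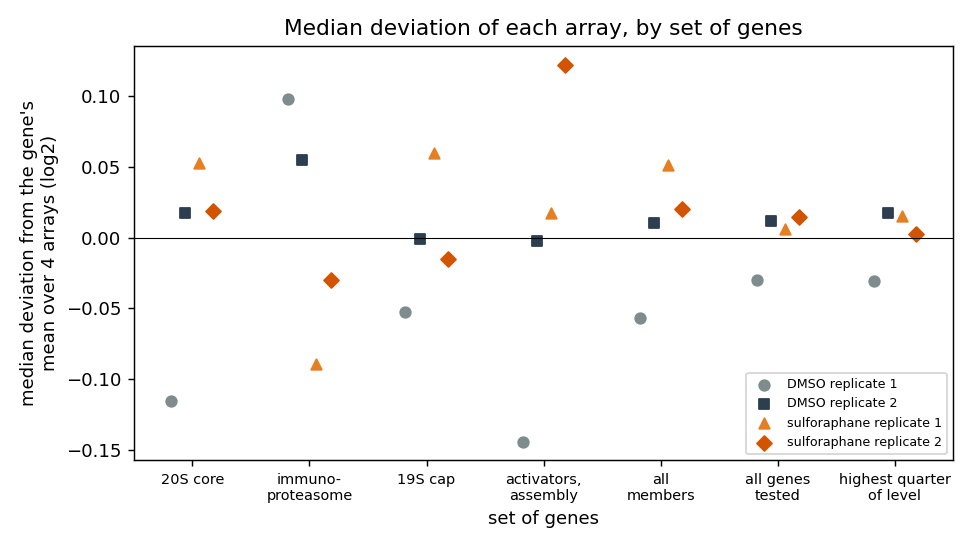
Median deviation (log2) of each array from the gene's mean over the 4 arrays, for the proteasome classes, all 48 members tested, all 14652 genes tested and the genes in the highest quartile of mean level. DMSO replicate 1 is lowest in every set but the immunoproteasome, where the DMSO arrays lie at 0.098 and 0.055 and the sulforaphane arrays at -0.089 and -0.030.

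Genes that work with the proteasome were listed beside the members. Of 16 cofactors and ubiquitin shuttles 14 were tested and 0 passed. Of these 11 lay above 0 and 3 below (median 0.16), where 54.2% of all genes tested lay above 0. Without overlap 6 lay higher and 2 lower, beside 24% and 19.5% of all genes tested. The ones with the smallest p were the autophagy receptor Sqstm1, a known NRF2 target, which read 10.85 and 10.92 in DMSO and 11.33 and 11.41 after sulforaphane (0.48 ± 0.11 SE; adjusted p = 0.171 by limma), and Ecpas, a scaffold that binds the 26S particle, with 8.85 and 8.88 against 9.22 and 9.22 (0.35 ± 0.10; adjusted p = 0.258). In both, the replicates of a treatment lay close together and the treatments apart. Zfand5 (0.26) and Ubqln2 (0.23) followed, also without overlap. Pomp, the maturation chaperone of the core, differed by 0.22 with overlapping groups, since DMSO replicate 1 was low at 8.96 and the other arrays lay between 9.38 and 9.49. Sem1, a small lid subunit outside the Psm names, lay lower without overlap (-0.23).

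The regulators of proteasome genes gave no call either, with 0 of 7 tested passing, 4 above 0 and 3 below. Nfe2l1 itself differed by -0.055 (-0.38 to 0.27) and Nfe2l2, which encodes NRF2, by -0.11 (-0.44 to 0.21), both with overlapping groups. Keap1, the adaptor that holds NRF2 down, read 7.85 and 7.66 in DMSO and 8.22 and 8.22 after sulforaphane (0.47 ± 0.12 SE; adjusted p = 0.195 by limma). Vcp and its cofactors Nploc4 and Ufd1, which release NFE2L1 from the endoplasmic reticulum, differed by 0.065, 0.067 and 0.12. Of 6 ubiquitin genes and activating enzymes only Uba6 had a probe set with a single symbol, and it differed by -0.020.

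In MHC class I antigen processing, which uses the peptides of the immunoproteasome, 0 of 11 genes passed, with 7 above 0 and 4 below (median 0.049). Tap1, a subunit of the peptide transporter, starts 226 bases from Psmb9 in the opposite direction. It read 9.15 and 9.14 in DMSO and 8.91 and 8.94 after sulforaphane, a difference of -0.22 ± 0.10 SE (adjusted p = 0.462 by limma), below 0 as Psmb9 was. Its partner Tap2 differed by 0.016 and B2m, the light chain of class I, by 0.17. Nlrc5, the activator of class I genes, differed by -0.22 and lay lower without overlap, while Irf1, a transcription factor for the immunoproteasome genes, read 7.85 and 7.90 in DMSO and 8.35 and 8.35 after sulforaphane (0.47 ± 0.11; adjusted p = 0.165). The estimates of these regulators thus had opposite signs.

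**Figure D5:**
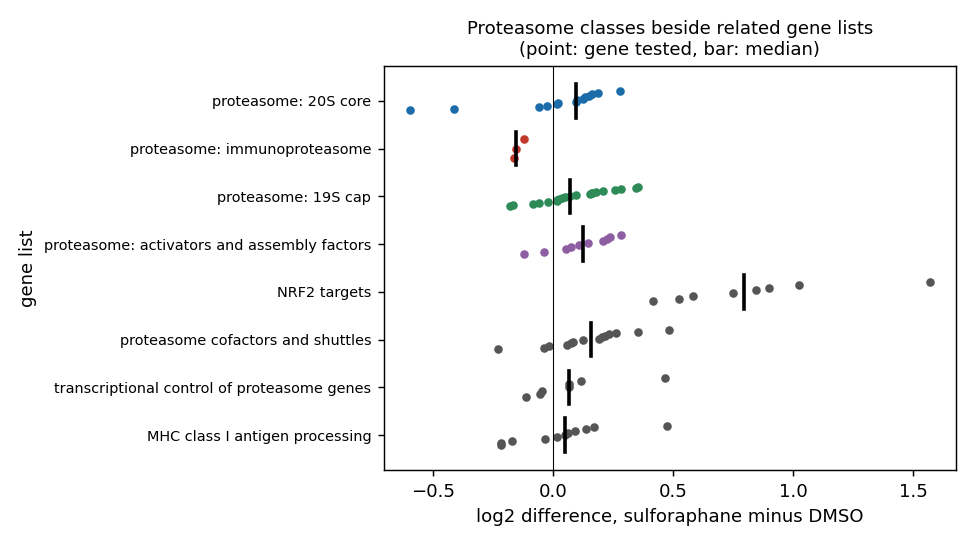
Log2 difference between sulforaphane and DMSO of the genes tested in the 4 proteasome classes (coloured points) and in 4 related lists (grey points), with the median of each as a black bar. The 8 NRF2 targets have a median of 0.80, and the medians of the proteasome classes lie between -0.15 and 0.13.

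Markers of the cells in the culture were read in the same arrays. Of 13 dendritic cell markers with a probe set, Itgax (CD11c) lay at 11.26 in DMSO and Ccr7 at 10.57, while Flt3 was low at 4.93. Macrophage, neutrophil and mast cell markers were present too, such as Csf1r at 11.25, S100a8 at 10.73 and Cpa3 at 9.97. Of the mast cell markers, however, Fcer1a was low at 3.68 in DMSO and Ms4a2 at 4.67, while the others lay between 7.33 and 9.97. Most B cell and T cell markers lay near background, such as Ms4a1 at 2.47 and Cd3e at 3.15 in DMSO. The B cell markers Cd79a and Cd79b read higher, at 3.80 and 4.27. Between treatments 0 markers passed limma. Dendritic cell markers lay below 0 in 8 of 13, all 8 without overlap (19.5% of all genes tested lay lower in this way), with a median of -0.27. Among them were the transcription factors Irf4 (-0.87; adjusted p = 0.0565 by limma), Batf3 (-0.64; adjusted p = 0.140) and Ciita (-0.46; adjusted p = 0.188), whose differences were larger than those of the immunoproteasome subunits. The marker list's level, which its brightest probe sets dominate, moved less (summed level on the log2 scale 12.96 to 13.00 in DMSO, 12.85 to 12.88 after sulforaphane). Macrophage markers lay below 0 in 9 of 9, 6 without overlap, with a median of -0.18 (13.33 to 13.42 against 13.19 to 13.25). Mast cell markers lay below 0 in 6 of 7, 4 without overlap (10.95 to 10.99 against 10.81 to 10.91). Neutrophil markers lay above 0 in 7 of 8, 1 without overlap, with a median of 0.052 (12.34 to 12.60 against 12.52 to 12.60). The other neutrophil marker, Cebpe, lay lower without overlap (-0.40). Of 6 B cell and 7 T and NK cell markers 3 and 2 were tested, with 0 and 1 above 0, and summed levels of 5.71 to 5.84 and 5.36 to 5.43 in DMSO against 5.40 to 5.80 and 5.29 to 5.34 after sulforaphane. The part of these shifts in the lower immunoproteasome readings was not tested.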

How the data were processed

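The authors deposited log2 expression values from Affymetrix arrays. The submitters' processing notes name RMA and R 2.15.1. RMA subtracts background, normalizes the arrays to 1 distribution and summarises the probes of a probe set. Of filters and summarization level nothing is stated in the sources used here. The log base is inferred from RMA and the value range. Of 41345 probe sets, 23521 had 1 gene symbol in the platform annotation, 1814 had several and the rest were not listed.

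Each gene was represented by its probe set with the highest mean, and a gene was tested where this mean exceeded 2.91, the 40th percentile over probe sets. Sulforaphane minus DMSO was fitted with limma 3.58.1 in R 4.3.3 without a block, with Benjamini-Hochberg adjustment over 14652 genes, a threshold of 0.05, 2 residual and 4.02 prior degrees of freedom. SE are moderated standard errors. Lists and classes are described by counts and medians, without a test. The members and lists were chosen with earlier results of these data known. Named with their arrays are the catalytic pairs and, in each class, the 4 tested members with the smallest p and the lowest one. Psmb11, under the filter, is given by its levels. Other members are given by difference. Promoters were read from a RefSeq table, and protein sequences were not used here. On simulated arrays of the 14652 genes, in 5 runs, the share of altered genes called was 4% at 1.5-fold, 71.6% at 2-fold and 93.2% at 3-fold, beside 50 of 72260 unaltered genes. The simulated noise was independent for each gene and array. It held no array that stood apart as DMSO replicate 1 did, so these shares may not hold for the data. The number of arrays limits the precision. Alternatives were other filters, scalings and probe set rules, a replicate block, other eBayes settings and each array left out.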

Additional observations from a re-analysis of the deposited data

How the results depend on the processing

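No proteasome member passed the threshold in any of the 14 alternatives, 1 of which was chosen after the data were seen. Filters, the block and eBayes settings leave a difference unchanged, so they cannot turn a sign. Psma5 and Psma8 were not tested with the filter at the 60th percentile. The second probe sets of Psma5 and of Psmg2, each of opposite sign to the one used, were not compared on their own. Within these limits 19 of the 20 members named by the rule kept their sign wherever they were tested. The exception, Psmb7 (-0.058), ran from -0.13 to 0.014 with 1 array left out, above 0 without DMSO replicate 2. The lowest adjusted p of these members was 0.164 by limma. The number of all genes past the threshold, 19, was 138 with the filter at the 60th percentile, 106 with a second quantile normalization (34 higher, 72 lower), 34 with the mean of the probe sets, 249 with an intensity trend in eBayes, 143 when centred on the genes tested, and 8 with a replicate block. The labels do not say what a replicate number shares. The correlation of the replicate differences between treatments was -0.081 over all genes tested, 0.493 over the 48 members and -0.091 over the 47 without Psma5, whose replicates lie furthest apart (left out after its values were seen). The numbers were not taken as pairs, and under the block no member was called. Centring on the genes tested gave medians of 0.022 for the members, -0.22 for the immunoproteasome and 0.0063 for the 19S cap. With 1 array left out, which leaves a lone sample assumed to vary like the other group, 0 genes were called in each case; the members' median ran from 0.040 to 0.12, that of the 20S core from 0.017 to 0.17, of the immunoproteasome from -0.17 to -0.089, of the 19S cap from -0.010 to 0.12, and of activators and assembly factors from 0.074 to 0.23. The cause of these shifts was not tested.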
